A study of Mus musculus with 12 samples.

Results

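The genes described here are 6 genes of antigen presentation by MHC class II, taken by symbol from a table of 24490 mouse genes: Cd74, H2-Aa, H2-Ab1, H2-Eb1, H2-DMa and Ciita. Their expression was followed through 3 preparations of dorsal root ganglia (DRG), the clusters of sensory nerve cell bodies beside the spinal cord, with 4 samples of each. All animals were adult male C57Bl/6 mice, with no treatment or genetic change given in the labels, and ganglia were pooled from every spinal level. Intact DRG were frozen without dissociation, with 1 mouse per sample. Unsorted DRG, titled as dissociated in the labels, were digested with dispase, collagenase and DNAse and triturated, with 2 pooled mice per sample. MACS-sorted DRG came from the same kind of digest, with 8 pooled mice per sample, after cells bound by a cocktail of biotinylated antibodies against non-neuronal cells had been held back on a magnetic column. Expression is given as FPKM, fragment numbers scaled to transcript length and to the mapped total of the sample, so that levels can be compared between genes of different length.

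MHC class II molecules are pairs of an alpha and a beta chain that display peptides from engulfed proteins to helper T cells. They are made mainly by macrophages, dendritic cells and B cells, and in a ganglion the resident macrophages are the best known source. Each new pair is held by the invariant chain, encoded by Cd74, which fills the peptide groove and steers the complex to endosomes. Proteases such as cathepsin S then trim the invariant chain, and H2-DM, a class II relative made of H2-DMa and H2-DMb chains, exchanges the remaining fragment for a peptide. Ciita encodes the coactivator that switches these genes on and is itself induced by interferon gamma. C57BL/6 mice lack a working H2-Ea gene, so that H2-Aa and H2-Ab1 form their classical class II molecule. H2-Ea-ps, the name under which the table lists that locus, was listed at 0 in every sample.

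In the mm10 assembly, 4 of the 6 genes share the MHC region of chromosome 17. H2-DMa lies at chr17:34122832-34139101, H2-Ab1 at chr17:34263227-34269418, H2-Aa on the minus strand at chr17:34282751-34287771 and H2-Eb1 at chr17:34305867-34316674. Ciita lies apart at chr16:10480072-10527564. In the GENCODE annotation, Ciita shares 329 exon bases with Dexi on the opposite strand. The library kit keeps the strand, but whether it was used in counting is not stated. Dexi had means of 21.3, 26.5 and 11.3 FPKM in intact, unsorted and MACS-sorted DRG, far above Ciita. If the strand was not used, reads of the 2 genes in the shared bases cannot be told apart. Antisense transcripts are also annotated over H2-Eb1 and H2-DMa, and a processed pseudogene over H2-DMa, all with 0 shared exon bases. Cd74 shares 12 exon bases with the microRNA gene Mir5107 on the same strand.

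Ciita does not touch DNA itself and acts through factors bound at a shared promoter layout, an X box held by the RFX complex followed by a Y box held by NF-Y, whose core is an inverted CCAAT. The promoter stretches shown next are those in which that layout can be read directly from these genes. They come from RefSeq windows of 250 bases before to 50 bases after each gene start in GRCm38.p6, and capitals mark AACT in the X box region and TGATTGG in the Y box region. H2-Aa is at chr17:34287861-34287908 on the minus strand, H2-Eb1 at chr17:34305772-34305818, H2-DMb1 at chr17:34153093-34153140 and H2-Eb2 at chr17:34325539-34325585, the last 3 on the plus strand.
H2-Aa: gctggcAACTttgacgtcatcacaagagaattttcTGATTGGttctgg
H2-Eb1: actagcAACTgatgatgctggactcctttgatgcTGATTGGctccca
H2-DMb1: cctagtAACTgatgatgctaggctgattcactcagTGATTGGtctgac
H2-Eb2: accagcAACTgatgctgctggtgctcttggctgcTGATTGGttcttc

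The letters searched were AACT followed after 15 to 40 bases by TGATTGG, on both strands, and they were chosen after the sequences had been seen. The gap between them was 25 bases in H2-Aa and H2-DMb1 and 24 bases in H2-Eb1 and H2-Eb2. Of all 32851 RefSeq windows of this length, 7.82% held TGATTGG and 0.694% held the pair. Neither of the 2 windows listed for H2-DMa held TGATTGG, and the windows of H2-DMb2, H2-Oa and H2-Ob held TGATTGG without the pair. No window was matched for H2-Ab1 and Ciita, and that of Cd74 was not used. A match of letters does not show binding: H2-Eb2 carries the pair, and its highest value in any sample was 0.0389 FPKM.

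The FPKM table holds no read numbers, and depth per sample was estimated from it. The steps between small FPKM values, taken with an assumed fragment of 150 bases, gave 16100000 to 19250000 fragments for intact DRG, at 15550000 to 18250000 for unsorted DRG and at 13400000 to 17000000 for MACS-sorted DRG. Neuronal markers were present throughout, with summed values of 7 markers between 2774 and 3977 FPKM in the 12 samples. Intact replicate 1 stood apart, with a sum over all genes of 345341 FPKM against 283676 to 293648 in the other intact samples, and fold changes of the 5 tested class II genes from intact DRG are given with and without it. MACS-sorted samples carried red blood cell genes, with summed values of 1678 to 15360 FPKM against 112 to 400 in unsorted samples. With those genes removed and the rest rescaled, the same number of class II genes, 5, was called lower in MACS-sorted than in unsorted DRG. Of all 12050 genes tested in that setting, 1413 were called lower.

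Intact and unsorted DRG shared a fixed order of class II levels. In each of the 8 intact and unsorted samples, Cd74 was highest, followed by H2-Aa, H2-Ab1, H2-Eb1, H2-DMa and Ciita. Mean levels in intact DRG were 52.2 ± 29.1 FPKM for Cd74, 34.0 ± 18.0 for H2-Aa, 19.3 ± 9.86 for H2-Eb1, 7.19 ± 2.09 for H2-DMa and 0.322 ± 0.316 for Ciita (SD, n = 4), and H2-Ab1 ran from 16.3 to 39.7 FPKM (SD 11.2). Between intact samples the ranges of neighbours overlapped, except those of H2-Eb1 and H2-DMa and of H2-DMa and Ciita. As a share of Cd74 in the same intact sample, H2-Aa stood at 61.0% to 73.6%, H2-Ab1 at 41.5% to 48.6% and H2-Eb1 at 35.5% to 39.3%. These shares were narrow although the level of Cd74 itself ran from 34.9 to 95.8 FPKM.

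**Figure D1:**
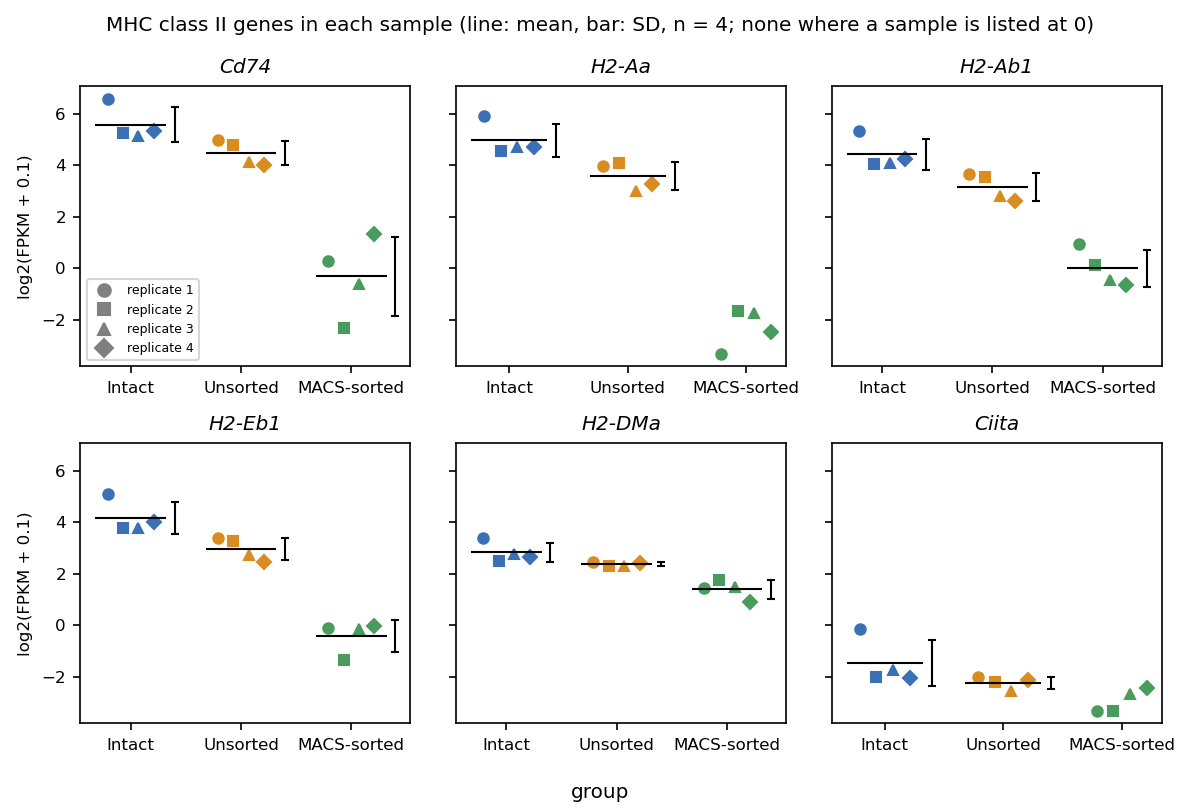
Expression of the 6 MHC class II genes in each sample, as log2(FPKM + 0.1) on the vertical axis, by preparation on the horizontal axis. Points are samples, with a marker for each replicate number, horizontal lines are means and bars are SD (n = 4), and neither is drawn where a sample is listed at 0. Intact replicate 1 is the highest intact sample for all 6 genes, and the MACS-sorted samples lie lowest for all genes but Ciita, where they overlap with unsorted samples.

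MACS-sorted and unsorted DRG differ in the holding back of non-neuronal cells, in the antibody and column steps and in the number of mice pooled. The paper reports that sorting also enriched small neurons. These differences cannot be told apart here. All 5 class II genes that could be tested were lower after sorting, and Ciita was too low to test. Cd74, the invariant chain gene at chr18:60803849-60812652 on the plus strand, was at 31.4, 27.6, 17.3 and 16.0 FPKM in unsorted replicates 1 to 4. In MACS-sorted replicates 1 to 4 it was at 1.12, 0.102, 0.557 and 2.42 FPKM. The groups did not overlap, and the mean after sorting, 1.05 ± 1.00 FPKM, was 4.55% of the unsorted mean of 23.1 ± 7.59 FPKM (SD, n = 4 each). On the log2(FPKM + 0.1) scale Cd74 fell by 4.80 (standard error 0.65, adjusted p = 2.4e-04 from limma, Benjamini-Hochberg adjustment over all genes tested). Fewer cells of a type and less RNA per cell cannot be told apart in such bulk samples.

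H2-Aa, the alpha chain, had the lowest mean after sorting among the 5 tested genes, although Cd74 was lower in replicate 2, at 0.102 FPKM. H2-Aa was at 15.5, 17.1, 7.84 and 9.48 FPKM in unsorted replicates 1 to 4. In MACS-sorted samples it was listed at 0 in replicate 1 and stood at 0.214, 0.197 and 0.0769 FPKM in replicates 2 to 4. By the depth estimate, these values rest on 0, 3, 3 and 1 fragments, so that the size of the difference is poorly fixed. Its log2-fold change was −5.89 ± 0.40 (standard error; limma adjusted p = 4.1e-06). A pseudocount of 1 FPKM in place of 0.1 gave −3.53 and one of 0.01 gave −7.22.

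The beta chains fell less than Cd74 and H2-Aa by their estimates. H2-Ab1 was at 12.6, 11.6, 6.85 and 5.96 FPKM in unsorted replicates 1 to 4, whereas the MACS-sorted replicates had 1.81, 1.00, 0.631 and 0.539 FPKM. Its mean after sorting was 10.8% of the unsorted mean, and it fell by 3.16 on the log2 scale (standard error 0.37, adjusted p = 9.5e-05 from limma). H2-Eb1 was at 10.3, 9.63, 6.56 and 5.41 FPKM in unsorted replicates 1 to 4, and sorting left 0.832, 0.296, 0.813 and 0.866 FPKM. It dropped to 8.81% of the unsorted mean, a log2-fold change of −3.37 ± 0.32 (standard error; limma adjusted p = 2.9e-05). For both beta chains, every MACS-sorted sample lay below every unsorted sample.

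H2-DMa, a chain of the peptide exchange factor, fell least. It was at 5.37, 4.82, 4.87 and 5.20 FPKM in unsorted replicates 1 to 4, and the sorted replicates held 2.61, 3.24, 2.69 and 1.75 FPKM. The groups did not overlap, and the mean after sorting was 50.8% of that before. The log2-fold change was −0.98 (standard error 0.17, 95% confidence interval −1.37 to −0.59, adjusted p = 0.0012 from limma). That interval lies apart from those of the other 4 genes, of which the nearest, that of H2-Ab1, runs from −3.98 to −2.34. Under quantile normalization it was −0.65 (adjusted p = 0.015 from limma), and the unsorted mean, 4.85 FPKM, then missed the level of 5 FPKM required for a call. Ciita was at 0.145, 0.118, 0.0687 and 0.126 FPKM in unsorted samples and at 0, 0, 0.0579 and 0.0823 FPKM in MACS-sorted samples, which overlap. Without the filter on low values its log2-fold change was −0.71 (adjusted p = 0.051 from limma).

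A gene was called when the adjusted p was under 0.05, the log2 ratio of group means lay beyond 0.5 and the higher group had a mean above 5 FPKM. By these criteria all 5 tested class II genes were called lower in MACS-sorted DRG, against 12.5% of the 12038 genes tested. H2-Aa, H2-Ab1 and H2-Eb1, with MACS-sorted means of 0.122, 0.995 and 0.702 FPKM, passed the filter only through unsorted DRG. All 5 reached the level of 5 FPKM only in unsorted DRG, so this count is a description and carries no support. At the adjusted p alone, 27.7% of genes tested were lower and 18.8% higher. The median log2-fold change of the 5 genes was −3.37, and that of all genes tested was −0.04. An exact two-sided permutation test of the mean FPKM gave p = 0.0286 for each of the 5, the smallest value that 4 samples against 4 allow, and p = 0.0571 for Ciita. The share of all genes whose groups do not overlap was not counted in any comparison. Non-overlap of single genes is therefore a description only.

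**Figure D2:**
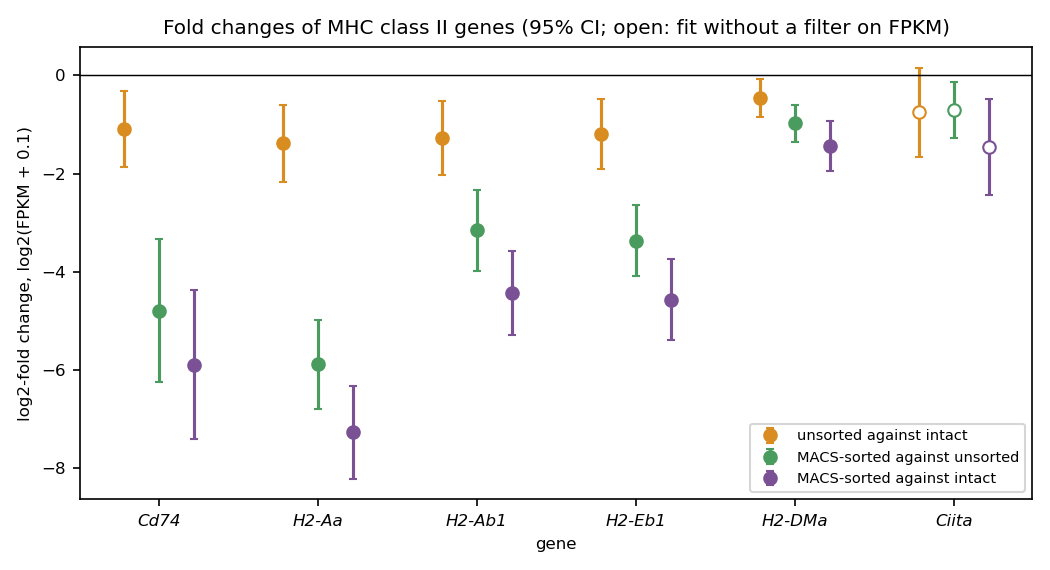
Log2-fold change of each MHC class II gene on the log2(FPKM + 0.1) scale (vertical axis) for the 3 comparisons between preparations, with 95% confidence intervals from limma. Open points are Ciita, from a fit without a filter on FPKM. Every estimate lies below 0, and in the comparisons with MACS-sorted DRG that of H2-DMa is the nearest to 0 among the 5 tested genes.

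Proportions among the class II genes were compared through their ratios to Cd74, and none of the 4 ratios tested passed after adjustment. As a share of Cd74 in the same sample, H2-DMa stood at 17.1% to 32.5% in unsorted and at 72.2% to 3169% in MACS-sorted DRG. It was the highest of the 6 genes in MACS-sorted replicates 1 to 3, while Cd74 was highest in replicate 4. The log2 ratio of H2-DMa to Cd74 was 3.82 higher in MACS-sorted than in unsorted samples (exact permutation p = 0.0286, 0.0571 after Benjamini-Hochberg adjustment over 4 ratios). That of H2-Eb1 to Cd74 was 1.43 higher (exact p = 0.0286, adjusted 0.0571), and the ratios of H2-Ab1 and H2-Aa to Cd74 had exact p-values of 0.143 and 0.314. The smallest exact p that 4 samples against 4 allow is 0.0286. H2-DMa and H2-Eb1 were at that floor, so their adjusted p is limited by the number of samples and ratios. It does not show unchanged proportions. The sorted values of Cd74 rest on an estimated 16, 2, 10 and 37 fragments.

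The replicates of the sorted group did not rank alike across the genes. Replicate 4 had the most Cd74, replicate 1 the most H2-Ab1 and replicate 2 the most H2-DMa. Replicate 4 also held the most macrophage signal, with a sum over 14 macrophage markers of 7.77 FPKM against 1.72 to 2.64 in the other 3. This was not particular to macrophages, since its sums of all other non-neuronal cell type lists were the highest too. Schwann cell markers summed to 1193 FPKM against 516 to 588, and fibroblast markers to 32.4 FPKM against 7.62 to 13.9. Its neuronal and nociceptor sums were the lowest of the sorted group. Without replicate 4, the log2-fold change from unsorted DRG was −5.35 for Cd74 and −0.81 for H2-DMa, and all 5 genes were called.

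Unsorted and intact DRG differ in the preparation of a cell suspension, which included digestion, trituration, straining and centrifugation, and in the number of mice pooled, and these cannot be told apart. The 4 genes of the invariant chain and the classical chains were lower in unsorted DRG, to 36.8% to 44.2% of the intact means (50.01% to 61.2% without intact replicate 1), and H2-DMa missed the threshold. Cd74 was at 95.8, 37.9, 34.9 and 40.3 FPKM in intact replicates 1 to 4, so replicate 1 had more than 2-fold the level of any other. No intact sample was as low as the highest unsorted sample, which had 31.4 FPKM. The log2-fold change was −1.10 ± 0.34 (standard error; limma adjusted p = 0.049) and −0.76 without intact replicate 1 (adjusted p = 0.025). This call was near the limit and was lost in 12 of 22 alternative fits, with adjusted p-values from 0.018 to 0.24.

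H2-Aa was at 60.9, 23.2, 25.7 and 26.0 FPKM in intact replicates 1 to 4, above all unsorted samples. It changed by −1.39 ± 0.35 (standard error; limma adjusted p = 0.023) on the log2 scale and by −1.07 without intact replicate 1 (adjusted p = 0.0096). Its unsorted mean, 12.5 ± 4.50 FPKM, compares with a mean of 34.0 FPKM over all intact samples and a range of 23.2 to 26.0 FPKM over intact replicates 2 to 4. The direction was the same with and without replicate 1.

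Both beta chains behaved alike in this comparison. H2-Ab1 was at 39.7, 16.3, 17.0 and 19.1 FPKM in intact replicates 1 to 4, with a log2-fold change of −1.27 ± 0.33 (standard error; limma adjusted p = 0.027). H2-Eb1 was at 34.0, 13.8, 13.7 and 15.8 FPKM, with a log2-fold change of −1.20 ± 0.32 (standard error; limma adjusted p = 0.027). Without intact replicate 1 the changes were −0.98 and −0.89 (adjusted p = 0.014 and 0.0094). No unsorted sample reached an intact one for either gene, though the share of all genes separated in this way was not counted. Among unsorted samples, replicates 3 and 4 were lower than replicates 1 and 2 for both beta chains, Cd74 and H2-Aa, and these samples bear on the calls. With unsorted replicate 3 or 4 left out limma called 0 class II genes (adjusted p from 0.065 to 0.16), although 4 and 5 of the 5 kept an unadjusted p under 0.05. With intact replicate 4 left out 1 was called.

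H2-DMa was at 10.25, 5.59, 6.69 and 6.22 FPKM in intact DRG and had the tightest unsorted group, 5.06 ± 0.27 FPKM (SD, n = 4). Its log2-fold change was −0.46 (95% confidence interval −0.84 to −0.08, adjusted p = 0.081 from limma), although the groups did not overlap. Without intact replicate 1 it was −0.28 (adjusted p = 0.025), under the fold criterion. Ciita was at 0.794, 0.148, 0.202 and 0.144 FPKM in intact DRG, and unsorted replicate 1 overlapped with the lowest intact sample. Its unsorted mean was 35.6% of the intact mean, or 69.6% without intact replicate 1, and its log2-fold change without a filter was −0.75 (adjusted p = 0.24 from limma). In all, 4 of 5 tested class II genes were called lower in unsorted DRG, against 2.76% of 12392 genes, while 7.79% of genes were lower and 14.8% higher at the adjusted p alone. The median over the 5 was −1.20 and over all genes 0.01.

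Against intact DRG, which were neither dissociated nor sorted, MACS-sorted samples had 2.01% of the mean Cd74, 4.33% of H2-Ab1, 3.63% of H2-Eb1 and 35.8% of H2-DMa. Without intact replicate 1 these shares were 2.79%, 5.71%, 4.87% and 41.7%. The log2-fold changes were −5.90, −7.28, −4.43, −4.57 and −1.44 for Cd74, H2-Aa, H2-Ab1, H2-Eb1 and H2-DMa, with adjusted p-values from limma between 5.8e-06 and 0.0011. Without intact replicate 1 they were −5.56, −6.96, −4.14, −4.26 and −1.26, and all 5 remained called. The background in this comparison was 10.7% of 12234 genes called lower, with 20.6% lower and 14.1% higher at the adjusted p alone. H2-Aa, H2-Ab1 and H2-Eb1 passed the filter only through intact DRG, and all 5 genes reached the level for a call only there. Ciita did not overlap between these groups (exact permutation p = 0.0286), and its log2-fold change without a filter was −1.46 (adjusted p = 0.032 from limma). It was not called, since no group mean reached 5 FPKM. The unsorted and intact comparisons share samples with this one and are not independent of it.

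Other genes of the class II pathway did not move as one group. Of 25 genes listed, 23 were in the table and 15 could be tested. In MACS-sorted against unsorted DRG, 6 of the 15 were lower and 1 was higher at an adjusted p under 0.05 from limma (27.7% and 18.8% of all genes tested), with a median log2-fold change of −0.37. Of the 6 lower, Ctss and H2-DMb1 passed the filter only through unsorted DRG. Ctss, the cathepsin that trims the invariant chain in antigen-presenting cells, was at 2.35 to 5.43 FPKM in unsorted samples and at 0, 0, 0.246 and 0.173 FPKM in MACS-sorted ones. Its log2-fold change was −4.43 (adjusted p = 7.5e-05 from limma). H2-DMb1, the beta partner of H2-DMa, was at 1.98 to 3.85 FPKM in unsorted samples and at 0, 0, 0.158 and 0.556 FPKM in MACS-sorted ones, with a log2-fold change of −3.67 (adjusted p = 7.9e-04 from limma). Reads of H2-DMb1 and its close copy H2-DMb2 may be split between them, so this value is uncertain. The alpha partner H2-DMa kept 50.8% of its mean where H2-DMb1 had a mean of 0.178 FPKM left of 2.57.

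Proteases with wider roles moved in both directions. Lgmn, an asparaginyl endopeptidase of lysosomes, fell from 153 to 80.8 FPKM (log2-fold change −0.92, adjusted p = 2.7e-05 from limma). Ctsl, cathepsin L, rose from 335 to 527 FPKM (log2-fold change 0.64, adjusted p = 0.0013 from limma). Ctsd, cathepsin D, and Sppl2a, the intramembrane protease that clears the last stub of the invariant chain, fell by 0.38 and 0.37. Ifi30, a thiol reductase that opens disulphide bonds of antigens, was at 2.94 to 5.85 FPKM in MACS-sorted and 5.04 to 6.64 FPKM in unsorted samples (adjusted p = 0.16 from limma).

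The promoter factors with which Ciita acts were present in every preparation. Of the RFX subunits, Rfxank fell by 0.68 (adjusted p = 0.027 from limma), while Rfx5 and Rfxap had log2-fold changes of −0.52 and 0.27 that did not pass. Creb1 and the NF-Y subunits Nfya, Nfyb and Nfyc did not pass either, and their log2-fold changes lay between −0.20 and 0.27. Rfxap, the most abundant RFX subunit, was at 5.57 to 7.74 FPKM in MACS-sorted samples. H2-Oa and H2-Ob, the chains of the inhibitor of H2-DM, and the costimulatory genes Cd80, Cd86 and Cd40 had means under 1 FPKM in each group and were not tested.

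In unsorted against intact DRG, 3 of the 15 pathway genes were lower and 3 higher, where 7.79% and 14.8% of all genes tested were. The 3 lower were Ctss, H2-DMb1 and Ifi30, with log2-fold changes of −1.13, −0.82 and −0.66 (adjusted p = 0.049, 0.037 and 0.024 from limma). Without intact replicate 1 these were −0.81, −0.64 and −0.50 (adjusted p = 0.039, 0.034 and 0.0072 from limma). The 3 higher were the broadly used lysosomal proteases Lgmn, Ctsb and Ctsd, with log2-fold changes of 0.49, 0.27 and 0.26. In MACS-sorted against intact DRG, 5 were lower and 1 was higher, and 6 and 1 without intact replicate 1. Of all genes tested, 20.6% were lower and 14.1% higher, or 2615 and 2058 of 12104 without that replicate.

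**Figure D3:**
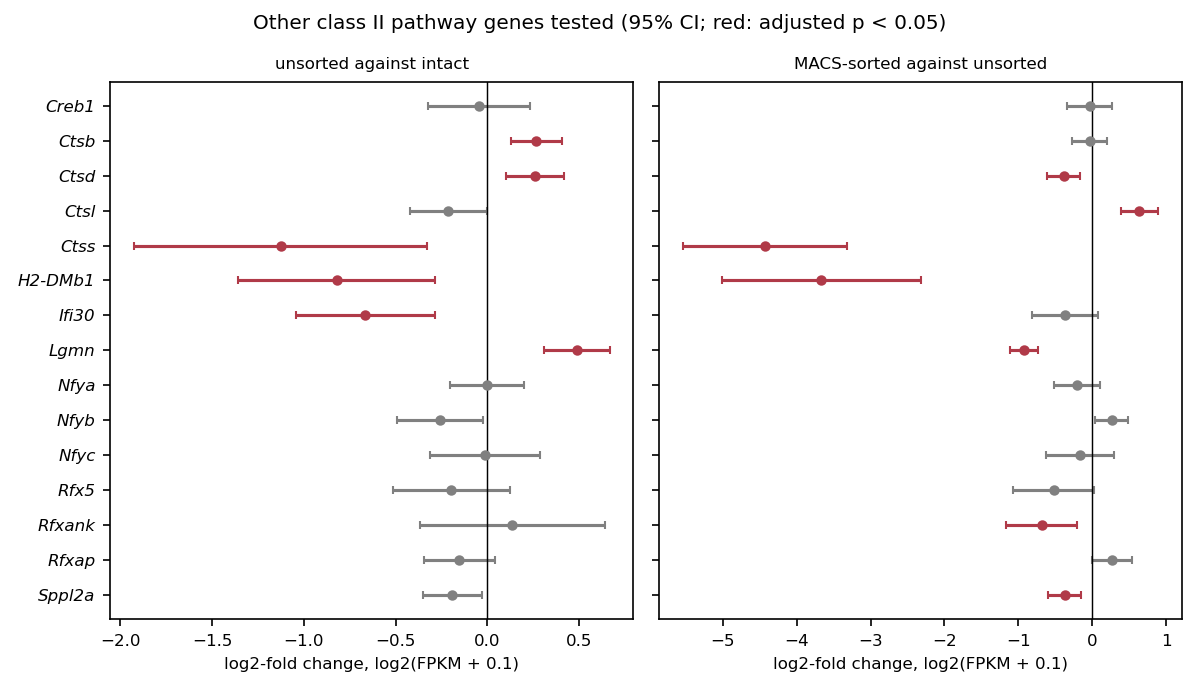
Log2-fold changes (horizontal axes, log2(FPKM + 0.1) scale) of the 15 other class II pathway genes tested, in unsorted against intact DRG on the left and MACS-sorted against unsorted DRG on the right, with 95% confidence intervals. Red points have an adjusted p under 0.05. Ctss and H2-DMb1 are lower in both comparisons, at −4.43 and −3.67 on the right, and the remaining genes lie within 1 of 0.

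MHC class I, by which nearly all nucleated cells show peptides from their own proteins, was examined for comparison. Of 15 class I pathway genes tested in MACS-sorted against unsorted DRG, 4 were lower and 1 was higher, where 27.7% and 18.8% of all genes were, with a median log2-fold change of −0.10. H2-D1, a classical class I heavy chain, rose from 77.6 to 117 FPKM (log2-fold change 0.58, adjusted p = 0.0011 from limma). H2-K1, the other classical heavy chain, was at 33.4 to 45.3 FPKM in MACS-sorted and 31.7 to 38.3 FPKM in unsorted samples (adjusted p = 0.10 from limma). The shared light chain B2m fell from 156 to 100.3 FPKM (log2-fold change −0.65, adjusted p = 0.0085 from limma), and the peptide transporter subunit Tap1 fell by 0.58. Near-identical class I heavy chain genes can share reads, which makes the split between H2-D1 and H2-K1 uncertain. In unsorted against intact DRG, 0 of the 15 were lower and 1, the chaperone gene Calr, was higher at an adjusted p under 0.05 from limma, against 2 lower and 4 higher at an unadjusted p. Without intact replicate 1, 2 were lower and 3 higher at the adjusted p. Of all genes tested, 7.79% were lower and 14.8% higher with that replicate, and 1666 and 2724 of 12294 without it.

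Interferon gamma signalling, which induces Ciita, was represented by 11 genes. Of the 8 tested, 3 were lower and 0 higher in MACS-sorted than in unsorted DRG at an adjusted p under 0.05 from limma. Of all genes tested, 27.7% were lower and 18.8% higher. Ifngr1, the ligand-binding receptor chain, fell from 13.1 to 6.06 FPKM (log2-fold change −1.10, adjusted p = 1.3e-04 from limma), and the interferon-induced genes Cxcl10 and Gbp2 fell by 3.64 and 1.39. Cxcl10, with means of 3.15 FPKM in unsorted and 0.179 FPKM in MACS-sorted DRG, passed the filter only through unsorted DRG. Ifngr2, Jak1, Jak2, Irf1 and Socs1 did not pass. Ifng itself was at or under 0.199 FPKM in every sample. In unsorted against intact DRG, 0 of the 8 passed at the adjusted p from limma or at an unadjusted p under 0.05. Of all genes tested there, 7.79% were lower and 14.8% higher at the adjusted p.

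Most macrophage markers had lower means where class II genes did. Of 14 macrophage markers, 13 had a lower mean in MACS-sorted than in unsorted DRG. C1qa, a chain of complement C1q, had means of 4.06 FPKM in unsorted and 0.0380 FPKM in MACS-sorted DRG, and Csf1r, the receptor for the growth factor that macrophages depend on, of 3.05 and 0.0699 FPKM. Ptprc, the CD45 gene of all white blood cells, went the other way, from 0.634 to 1.03 FPKM, and Aif1 had overlapping values with means of 0.535 and 0.435 FPKM. No count of tests is given for this list, since only markers high enough in unsorted DRG passed the filter. Summed over the 14 markers, intact DRG held 54.9 to 116 FPKM, unsorted DRG 18.1 to 37.7 and MACS-sorted DRG 1.72 to 7.77. Emr1, Cx3cr1, Cd163 and C1qc were listed at 0 in MACS-sorted replicates 1 to 3. In unsorted against intact DRG, all 14 had a lower mean, also without intact replicate 1.

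The summed level of the 6 class II genes followed the same steps. Intact DRG held 96.9 to 242 FPKM, unsorted DRG 42.2 to 75.3 and MACS-sorted DRG 4.85 to 6.38. As a percentage of the macrophage sum in the same sample it ran from 169% to 208% in intact DRG, from 197% to 241% in unsorted DRG and from 192% to 287% in MACS-sorted replicates 1 to 3, and 73.8% in MACS-sorted replicate 4. H2-DMa, which fell least, gave 3.24 of 4.85 FPKM of class II in MACS-sorted replicate 2 and 1.75 of 5.73 in replicate 4. Ptprc, whose mean rose, gave 0.939 of 2.53 FPKM of macrophage markers in replicate 2 and 1.40 of 7.77 in replicate 4. The percentages after sorting thus rest partly on genes that fell least or rose. The part of macrophage content in the class II differences was not tested.

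**Figure D4:**
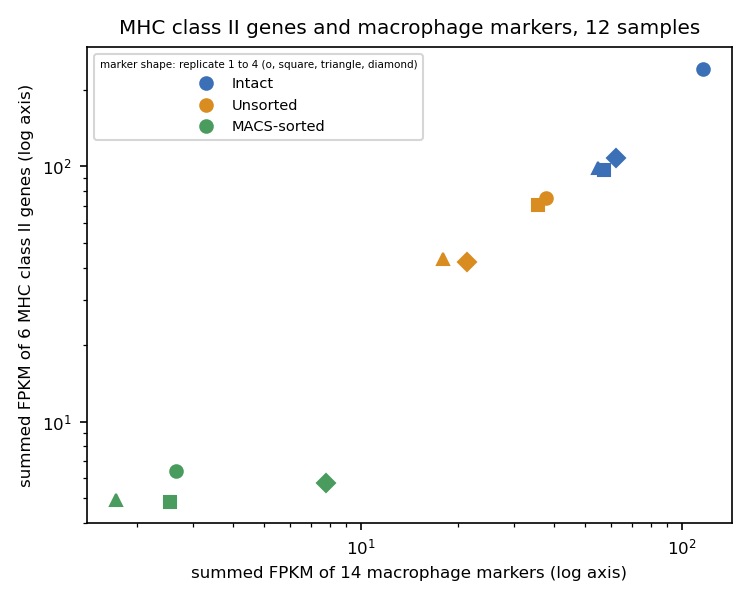
Summed FPKM of the 6 class II genes (vertical log axis) against summed FPKM of 14 macrophage markers (horizontal log axis), with 1 point per sample, coloured by preparation and shaped by replicate number. The samples run from 4.85 FPKM of class II in a MACS-sorted sample to 242 FPKM in intact replicate 1. MACS-sorted replicate 4 lies to the right of the other sorted samples, in which H2-DMa and Ptprc are the largest parts of the sums.

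Markers of the other cell types known for class II did not move as one. Of 8 dendritic cell markers, 4 had a lower and 4 a higher mean in MACS-sorted than in unsorted DRG, and only Flt3 and Zbtb46 could be tested. Flt3 fell from 7.14 to 1.35 FPKM after sorting (log2-fold change −2.34, adjusted p = 9.6e-06 from limma), and Zbtb46 rose by 0.39 (adjusted p = 0.048 from limma). Xcr1 and Cd209a were at or under 0.659 FPKM in intact and unsorted samples and listed at 0 in all 4 MACS-sorted samples. Clec9a, Batf3 and Ccr7 had unsorted means of 0.0156, 0.190 and 0.0633 FPKM and MACS-sorted means of 0.0174, 0.260 and 0.0997 FPKM, with overlapping values. Summed over the 8, intact DRG held 8.06 to 10.6 FPKM, unsorted DRG 9.93 to 12.8 and MACS-sorted DRG 5.37 to 6.43. These sums were mostly Flt3 and Zbtb46, with means of 4.47 and 3.58 FPKM in intact and 7.14 and 3.06 FPKM in unsorted DRG. Of the 8 markers, 6 had a lower and 2 a higher mean in unsorted than in intact DRG. The 6 B cell markers summed to 1.38 to 6.39 FPKM in intact DRG, 0.63 to 3.72 in unsorted DRG and 0.228 to 1.48 in MACS-sorted DRG, with Ms4a1 and Pax5 listed at 0 in every MACS-sorted sample. The order of these sums, as group means, is that of the class II genes. For 6 T cell markers the sums were 1.08 to 2.60 FPKM in intact DRG, 0.462 to 1.38 in unsorted DRG and 1.97 to 5.50 in MACS-sorted DRG, which is not the order of the class II genes. The part of these cells in the class II differences was not tested.

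Among the other non-neuronal cell types, all 6 satellite glia markers, 5 of 6 Schwann cell markers and 5 of 6 fibroblast markers were lower in MACS-sorted than in unsorted DRG at an adjusted p under 0.05 from limma. All 6 endothelial markers missed it, with log2-fold changes from −0.70 to −0.32. Slc1a3, Kcnj10, Cdh19, Mag and Lum passed the filter only through unsorted DRG. Their MACS-sorted means were 0.0364, 0.119, 0.594, 0.803 and 0.313 FPKM, so these counts are a description and carry no support. Of all genes tested, 27.7% were lower and 18.8% higher. In unsorted against intact DRG, all 6 fibroblast markers were lower and all 6 endothelial markers higher, where 7.79% and 14.8% of all genes were. Of 6 satellite glia markers, 0 were lower and 2 higher there, and of 6 Schwann cell markers 0 passed in either direction. The part of these cell types in the class II differences was not tested.

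Intact replicate 1 had the highest class II level of the whole series. It held 2.38-fold the Cd74, 2.34-fold the H2-Aa, 2.08-fold the H2-Ab1 and 2.15-fold the H2-Eb1 of the next intact sample. H2-DMa was 1.53-fold and Ciita 3.94-fold above the next intact sample. Over the 12461 genes whose intact mean reached 1 FPKM, 44.8% were highest in this sample and 3.15% were more than 2-fold above the next, so that 4 of the 5 class II genes at this level belonged to a small share.

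Interferon gamma genes were also high in that sample. Of 9 interferon gamma signalling genes, 7 were highest in intact replicate 1 and 5 were more than 2-fold above the next sample. Gbp2, a guanylate-binding protein, was at 42.7 FPKM against 3.71 to 6.77 in the other intact samples. Cxcl10, an interferon-induced chemokine, was at 10.8 against 1.16 to 2.57 FPKM, and the transcription factor Irf1 at 14.8 against 5.27 to 7.05 FPKM. Ifng was listed at 0 in that sample.

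Class I and macrophage genes shared this pattern. Of 15 class I pathway genes, 13 were highest in intact replicate 1, with Tap1 at 9.66 against 2.56 to 3.38 FPKM and the immunoproteasome subunit Psmb9 at 11.4 against 3.13 to 4.23 FPKM. Of 12 macrophage markers, 11 were highest there, and C1qa was at 21.9 against 9.64 to 10.6 FPKM. Markers of other cells were also high there, with 5 of 6 Schwann cell, 4 of 6 fibroblast and 4 of 5 red blood cell markers highest, among them the fibroblast genes Dcn at 2.12-fold and Lum at 2.37-fold the next intact sample and the globin gene Hbb-bs at 2.47-fold. Of the remaining lists, 3 of 6 satellite glia, 2 of 6 endothelial, 1 of 7 neuronal and 1 of 8 nociceptor markers were highest in that sample. So were 8 of 15 other class II pathway genes, against 44.8% of all genes, and 1 of them was more than 2-fold above the next. Among dendritic and B cell markers at this level, 0 of 2 and 1 of 1 were highest there. The sample is 1 mouse, and the part of these cell types or of an interferon response in its class II level was not tested.

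**Figure D5:**
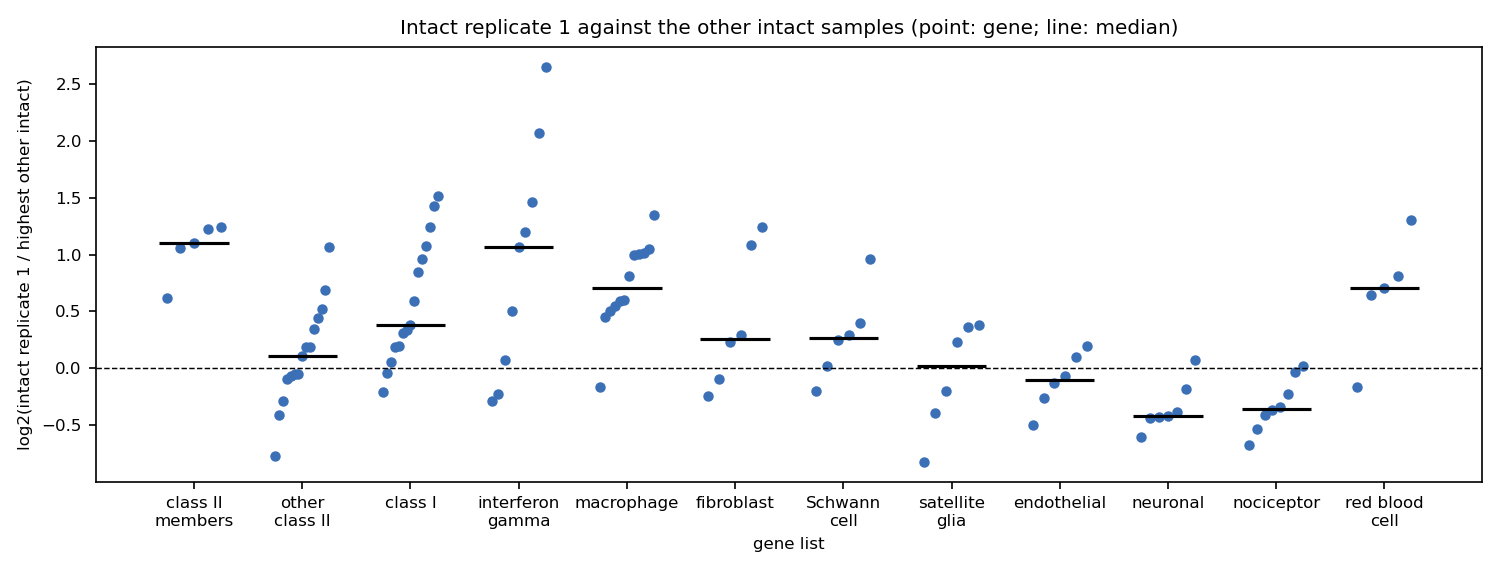
Level in intact replicate 1 over the highest of the other 3 intact samples, as a log2 ratio on the vertical axis, for those genes of 12 lists whose intact mean reached 1 FPKM. Points are genes and lines are list medians. Class II, class I, interferon gamma, macrophage, fibroblast, Schwann cell and red blood cell genes lie mostly above 0, with Gbp2 highest at 6.30-fold, and neuronal and nociceptor markers mostly below 0. Other class II pathway genes lie on both sides, with 8 of 15 above 0.

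Across the 12 samples, the genes whose profile was most like the mean profile of the 5 class II genes whose overall mean reached 1 FPKM were Angptl7, Tmem119, Glt8d2, Fam180a, Fcrls, Bmp5, Mpeg1 and Col8a2. Likeness was the root mean square difference of centred log2(FPKM + 0.1) values, which ran from 0.25 to 0.34 for these 8 of 12283 genes. For comparison, the class II genes themselves lay at 0.23 for H2-Eb1, 0.43 for H2-Ab1, 0.86 for Cd74, 1.24 for H2-Aa and 1.47 for H2-DMa from their own mean. All 8 genes had intact means of 1.90 to 3.85 FPKM and MACS-sorted values at or under 0.146 FPKM. The list depends on the scale: with a pseudocount of 1 FPKM the nearest genes were C1qc, C1qb, Gsn, C1qa, Myoc, Mmp2, Ctss and Cldn1, with 0 of the 8 in common.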

How the data were processed

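RNA from 12 DRG samples (4 intact, 4 unsorted, 4 MACS-sorted, each labelled a separate sample of pooled or single mice) was polyA-selected and sequenced with 100 bp reads. The authors aligned reads to mm10 with TopHat2, merged lanes with SAMtools and estimated expression with Cufflinks 2.1.1. The deposited values are FPKM per annotated gene, normalised by the authors to mapped fragments, and hold no counts, so the study's CuffDiff test was replaced. Reads of near-identical genes can be divided between copies in such estimates. Fold changes on the log2 scale were computed here from the deposited FPKM.

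Each pair of groups was fitted with limma 3.58.1 in R 4.3.3 on log2(FPKM + 0.1), two-sided and with an intensity trend, on the 8 samples compared, leaving out genes whose mean over these samples was under 1 FPKM. The pseudocount understates changes of genes with low values. For single genes and ratios an exact permutation test (two-sided) was added. Errors are SD unless stated. The fit was tested on simulated data with equal spread in both groups and changes only in genes above 5 FPKM in unsorted DRG. That setting differs from MACS-sorted class II values near 0, so the simulation does not bear on them. Named genes are the 6 class II genes, genes of the lists (class II and class I pathway, interferon gamma signalling and cell type markers) and the 8 with the most similar profile. One gene of the interferon gamma list is not reported here, and its list counts and sums leave it out. The members and lists were chosen with earlier results of these data known. Replicate numbers do not pair the samples. Alternatives covered pseudocounts, filters, call limits, scaling, the sample set, a replicate block, averaged unsorted replicates 1 and 2, and each replicate left out. Loci are those of the table, with starts counted from 1. Promoter sequences are RefSeq windows of GRCm38.p6, and overlaps come from GENCODE. The precision is that of 4 samples per group, since read counts were not used here.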

Additional observations from a re-analysis of the deposited data

Results flagged for a closer look

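Of 30 groups of 4 samples examined (the 6 class II genes and 4 list sums in each preparation), 10 had a highest or lowest sample whose gap to the nearest other exceeded Dixon's 95% limit for 4 samples as a share of the range. Chance alone flags about 1 in 20 such groups. These groups are not independent, since class II genes rise and fall together between samples.

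In intact DRG the highest sample, replicate 1 in each case, stood apart for Cd74 at 95.8 FPKM (the others at 34.9 to 40.3), H2-Aa at 60.9 FPKM (23.2 to 26.0), H2-Ab1 at 39.7 FPKM (16.3 to 19.1), H2-Eb1 at 34.0 FPKM (13.7 to 15.8) and Ciita at 0.794 FPKM (0.144 to 0.202). In the same sample the summed FPKM stood apart for the class I pathway at 1026, for interferon gamma signalling at 207 and for macrophage markers at 116. In MACS-sorted DRG the lowest value of H2-Eb1, 0.296 FPKM in replicate 2, lay apart from 0.813 to 0.866 FPKM in the others. The macrophage marker sum of MACS-sorted replicate 4, 7.77 FPKM, lay apart from 1.72 to 2.64 FPKM.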

How the results depend on the processing

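Of 322 fold changes of the 5 tested class II genes under alternative settings, 0 reversed and 27 changed their call, mostly in unsorted against intact DRG. There the number of class II genes called ran from 0 to 4 with 1 replicate left out: 1 without intact replicate 4 and 0 without unsorted replicate 3 or 4. The number of all genes called ran from 579 (without unsorted replicate 3) to 885, and was 165 with a log2 ratio beyond 1 and 1349 with a mean above 1 FPKM, against 873. Cd74 lost its call there with a pseudocount of 1 FPKM (adjusted p = 0.051 from limma), no filter (0.063), all 12 samples in the fit (0.24), no trend (0.059) and unsorted replicates 1 and 2 averaged (0.063). In MACS-sorted against unsorted DRG, 3 class II genes were called with a filter at a mean of 5 FPKM, which tests fewer genes, 2 with a mean above 10 FPKM, and 4 to 5 with a replicate left out. All genes called numbered 1139 with a log2 ratio beyond 1, against 2486, and in MACS-sorted against intact DRG 1011 against 2235. H2-DMa lost its call against unsorted DRG under quantile normalization (unsorted mean 4.85 FPKM, under the level required), the criteria of a log2 ratio beyond 1 and a mean above 10 FPKM, and without unsorted replicate 1. The causes were not tested except where the setting itself tests fewer genes or a mean is given.

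Quantile normalization split the genes called into 1382 higher and 1285 lower in MACS-sorted against unsorted DRG (981 and 1505 otherwise), 421 and 408 in unsorted against intact (531 and 342) and 1248 and 1183 in MACS-sorted against intact (922 and 1313). It put the median of all genes at 0.10, 0.03 and 0.13, and each tested class II gene stayed lower than that median. Same-numbered samples did not deviate together (correlations −0.14 to 0.067). A replicate block gave 5, 4 and 5 class II genes called and 2507, 899 and 2229 genes in all, and changed no call of a class II gene. Estimated depth limits Ciita and the MACS-sorted values of H2-Aa and Cd74, which rest on few fragments.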
